A study of Saccharomyces cerevisiae with 24 samples.

Results

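The 38 genes described here make, store, take up or control ergosterol, the main sterol of yeast membranes. They were picked by name from the mevalonate and sterol pathway, a rule that uses no measured value. The choice was nevertheless made with earlier results of these data known. All 38 were found among the 7126 genes of the deposited count table, and all 38 passed the filter on low counts. By role they fall into 9 genes of the mevalonate pathway, 3 from squalene to lanosterol, 5 from lanosterol to zymosterol, 5 from zymosterol to ergosterol, 5 electron donors and scaffolds, 5 regulators, 4 genes of sterol esterification and acetylation, and 2 sterol importers.

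The samples were 24 libraries of polyA RNA from haploid Saccharomyces cerevisiae cultures, with 3 libraries in each of 8 groups. Each library holds the bulk RNA of a culture, in which fewer cells making a transcript and less of it per cell cannot be told apart. Both strains were BY4741 derivatives of mating type a (MATa) with the alleles his3delta1, ura3delta0, leu2delta0 and lys2delta0, and both carried a HYG-TEFp-GFP(Y66F) insertion on chromosome VI. The wild type (WT) had CNB1, the gene of the regulatory subunit of the phosphatase calcineurin. In the second strain, here cnb1Δ, KanMx replaced that gene. Cultures in synthetic medium with ammonium chloride were sampled before treatment (0 h) and after 12, 48 and 72 h in 200 mM CaCl2, with dilution every 12 h. No untreated culture of the later times was analysed here, so the effects of CaCl2 and of time in culture cannot be told apart. The comparisons ask how sterol genes respond to long exposure to calcium and how that response differs without calcineurin. The 3 libraries of a group come from triplicate time courses, and whether these began from separate colonies is not stated, so p-values measure the spread between these samples.

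Ergosterol is built from acetyl-CoA by way of mevalonate, farnesyl pyrophosphate, squalene and lanosterol, and the late steps need oxygen, haem and electrons from NADPH. The paralogous zinc cluster proteins Upc2 and Ecm22 bind sterol response elements in the promoters of these genes, and Upc2 activates them when ergosterol runs low. Surplus sterol is stored as esters in lipid droplets. Calcineurin is activated by calcium and calmodulin, and its best known yeast target is the transcription factor Crz1.

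Promoter sequences of members that carry the core of the sterol response element or a Crz1 site are shown as background. The activity of Upc2 and Crz1 was neither altered directly nor measured, and their part in the results was not tested. The sequences were read from the RefSeq genome of build R64, the build that the submitters name, in the 500 bases before each start codon on both strands. These windows can run into a neighbouring gene. The core TCGTATA (or its reverse complement TATACGA) was present before 10 of the 38 genes, 26.3%, against 7% of 6000 promoters of the same length. The 10 were ERG13, ERG8, ERG1, ERG25, ERG6, ERG2, ERG3, CYB5, ERG28 and NSG2. Sites are shown for some of these genes, without ERG1, ERG6, CYB5 and NSG2. All genes shown except ERG3 were called for a strain difference in the 12 h response, described below. None of those left out was. The sites shown are therefore not a neutral sample of the 10. ERG13, ERG25 and ERG3 each hold another match that is not shown. The lines below run 5′ to 3′ on the strand of the gene, with the core in capitals. They are ERG13 (chrXIII:20726-20766), ERG8 (chrXIII:712147-712187), ERG25 (chrVII:610084-610124), ERG2 (chrXIII:667335-667375), ERG3 (chrXII:253558-253598) and ERG28 (chrV:238271-238311).
ERG13: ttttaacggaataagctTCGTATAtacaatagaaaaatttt
ERG8: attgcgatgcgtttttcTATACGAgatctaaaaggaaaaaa
ERG25: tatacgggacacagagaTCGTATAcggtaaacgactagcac
ERG2: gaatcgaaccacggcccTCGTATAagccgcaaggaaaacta
ERG3: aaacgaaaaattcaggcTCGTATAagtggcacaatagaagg
ERG28: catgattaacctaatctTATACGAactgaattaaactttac

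The Crz1 pattern GNGGCNCA was present before 3 of the 38 genes, 7.89%, against 7.67% of all promoters, so the share was close to the background. The 3 were ERG3, ERG28 and UPC2, shown with the match in capitals from chrXII:253566-253607, chrV:238418-238459 and chrIV:889469-889510. The match shown for UPC2 is the reverse complement of the pattern. ERG3 holds another match, also as reverse complement, that is not shown. In ERG3 the match shown here follows the core shown above without overlapping it.
ERG3: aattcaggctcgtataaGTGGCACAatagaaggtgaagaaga
ERG28: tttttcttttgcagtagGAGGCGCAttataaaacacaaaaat
UPC2: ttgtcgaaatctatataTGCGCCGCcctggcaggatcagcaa

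The core ATTGTTC of the repressor Rox1 was found before 9 of the 38 genes, 23.7%, against 11.8% of promoters. The site of the haem-dependent activator Hap1 was found before 0 of the 38 and before 0.35% of all promoters. These are matches of letters in a window, and binding was not measured.

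Levels of different genes are compared as deposited TPM, which is corrected for transcript length. Before treatment the 38 genes together held 6486 ± 439 TPM in WT and 6440 ± 278 TPM in cnb1Δ (SD, n = 3 in each group named here). In WT the sum was 11350 ± 361 TPM after 12 h, 9313 ± 174 after 48 h and 9138 ± 196 after 72 h. In cnb1Δ it was 7149 ± 558, 7309 ± 548 and 7329 ± 235 TPM. Every WT library at 12, 48 and 72 h lay above every cnb1Δ library. In WT at 0 h the most abundant member was ERG11 at 646 TPM, followed by ERG25 at 579 and ERG3 at 545, and the least abundant were UPC2 at 8.1 and PDR11 at 4.3.

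**Figure D1:**
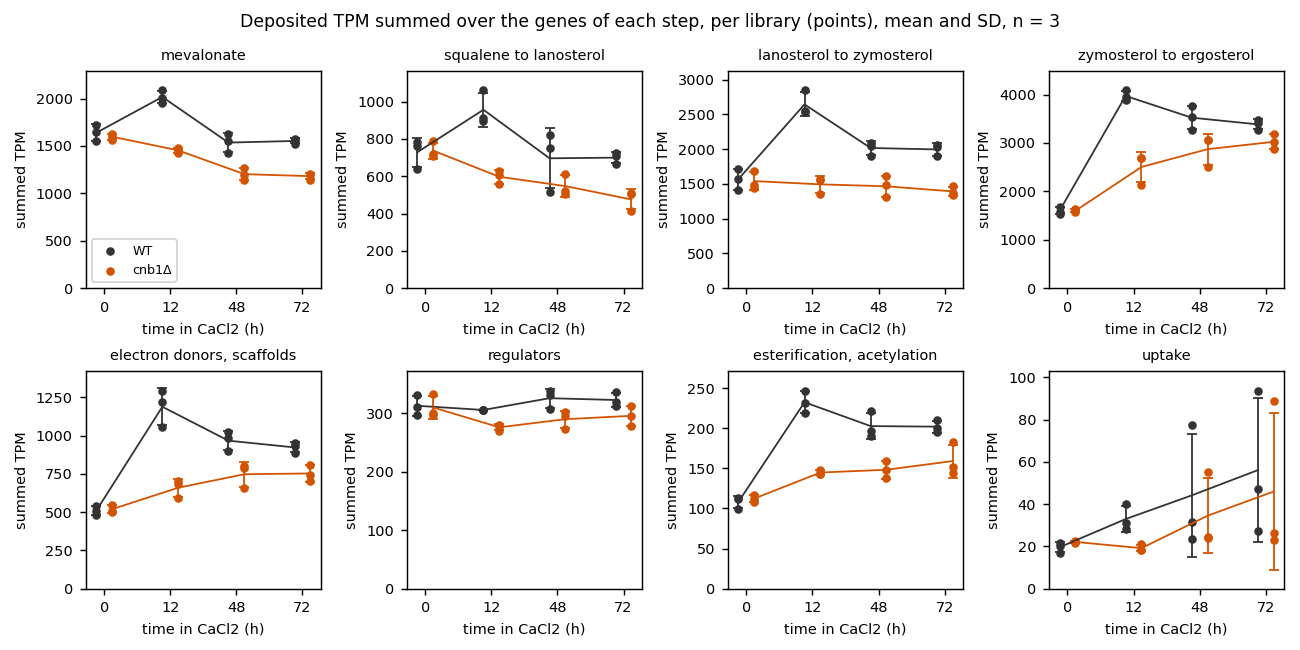
Deposited TPM summed over the genes of each step, by time in CaCl2 (h, evenly spaced positions), for WT (dark) and cnb1Δ (orange). Points are libraries, lines join group means and bars are SD (n = 3). These TPM are not scaled by TMM, and changes from 0 h depend on the scaling. The WT sums for lanosterol to zymosterol and for zymosterol to ergosterol peak at 12 h, at 2644 and 3972 TPM, and at 12 h no cnb1Δ library reaches a WT library in any of the 8 panels.

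Libraries held 18843220 to 22250806 counts, of which members took 0.942% to 1.72%. CNB1 lay between 51.5 and 129 CPM (counts scaled to a common library size) in the 12 WT libraries and between 0 and 0.953 CPM in the 12 labelled cnb1Δ. All 6 genes of the a-cell marker list fell at 12 h in both strains, from a summed 2790 to 3205 CPM to 493 to 664 in WT and from 2633 to 2674 to 1026 to 1226 in cnb1Δ. No a-cell marker was at 0 in any library. The 4 alpha-cell markers summed to 23.2 to 49.2 CPM in all libraries. The 8 meiosis genes summed to 38.5 to 77.3 CPM. Their part in the results below was not tested. The replicate 1 libraries of the 4 groups at 48 and 72 h deviated alike from their groups, with correlations across genes of 0.569 to 0.695 over 6 pairs. A list of 15 stress genes summed to 429 to 2697 CPM in WT at 48 h and 668 to 2001 CPM at 72 h. In these 4 libraries 11 members were the lowest of their group every time (ERG10, ERG13, HMG1, ERG12, ERG8, IDI1, ERG1, ERG7, ERG11, DAP1 and ARE2) and 4 were the highest (ERG6, ERG29, ARE1 and AUS1).

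Before treatment the strains did not differ in any sterol gene beyond the threshold. With edgeR's quasi-likelihood test and an adjusted p under 0.05 as the threshold, 0 of the 38 were called, against 0.032% of all 6253 genes tested. DESeq2 also called 0, and 0 had an unadjusted p under 0.05. The log2 fold changes of cnb1Δ against WT ran from -0.24 to 0.22. The median was -0.10 for the members and -0.01 for all genes.

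After 12 h in CaCl2 the late enzymes, the scaffolds and UPC2 rose in WT. Of the 38 genes 18 rose and 5 fell, shares to be read against 24.6% of all genes called higher and 22.4% lower. The median log2 fold change was 0.54 for the members and 0.01 for all genes. In the steps from lanosterol to zymosterol, from zymosterol to ergosterol and among the electron donors and scaffolds, 4 of 5 genes rose in each. The first 3 enzymes after farnesyl pyrophosphate (ERG9, ERG1, ERG7) gave 0 calls, though replicate as a block, which fits libraries that deviate in pairs by number, called ERG1 higher (log2 fold change of 0.31, edgeR adjusted p = 0.0194). With the block all 23 calls were kept and 7 were added (ERG1, ERG5, CYB5, SUT1, ARE2, AUS1 and PDR11). A fit of the compared groups only, with no block, gave 24 higher and 5 lower, so the number of calls rose without the block too. At 48 h 15 rose and 10 fell (33.7% and 30% of all genes) with a median of 0.05, against 0.06 for all genes. At 72 h 17 rose and 11 fell (34.7% and 29.8% of all genes) with a median of 0.19, against 0.08. The mevalonate genes supplied 5 of the 10 that fell at 48 h and 4 of the 11 at 72 h.

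In cnb1Δ the same comparisons gave shares nearer to those of all genes at 12 h and more falls than rises later. At 12 h 8 rose and 9 fell, against 22.1% of all genes higher and 20.2% lower, so neither count stood apart from the background, and the median log2 fold change was -0.18 against 0.02 for all genes. At 48 h 8 rose and 16 fell (28.9% and 26.4% of all genes), and at 72 h 8 rose and 17 fell (31.6% and 28% of all genes), with medians of -0.15 and -0.19. The 8 that rose at 12 h were ERG20, ERG6, ERG3, ERG4, NCP1, ERG29, UPC2 and ARE1, of which ERG20 and UPC2 were lost under some alternative. The balance of calls depends on scaling. With total counts in place of TMM (the scaling that trims extreme genes) the median log2 fold change of all genes stood at 0.18 to 0.38 in these 6 comparisons. The members then split 23 up and 3 down, 21 and 6, and 20 and 4 in WT at 12, 48 and 72 h, and 10 and 5, 11 and 7, and 13 and 12 in cnb1Δ.

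**Figure D2:**
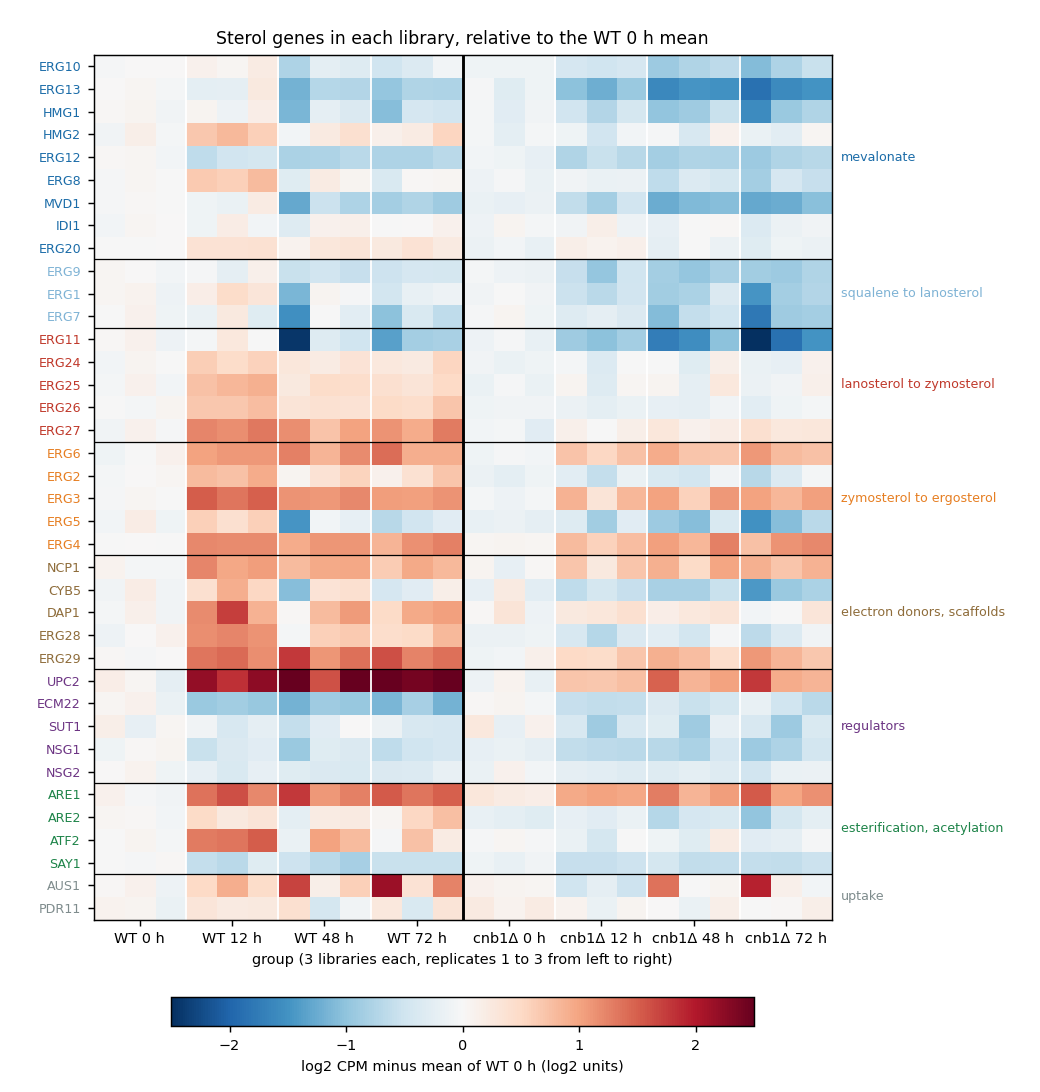
Log2 CPM of the 38 genes in each of the 24 libraries, minus the mean of WT at 0 h (colour scale, log2 units, red higher). Rows are genes coloured by pathway role and columns are libraries in groups of 3. The UPC2 row is the darkest red in WT from 12 h on, the late enzymes and scaffolds are redder in WT than in cnb1Δ at 12 h, and the first library of each late group stands out blue in ERG11 and red in AUS1.

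Compared directly at 12 h, cnb1Δ held less RNA of most sterol genes than WT. Of the 38 genes 25 were lower and 0 higher in cnb1Δ, against 6.96% of all genes called lower and 527 of all 6253 called higher. The median log2 fold change was -0.66, against -0.00 for all genes tested. The 3 cnb1Δ libraries lay below all 3 WT libraries in 32 of the 38, which 20.2% of all genes did. The lower genes were 6 of 9 in the mevalonate pathway, 2 of 3 from squalene to lanosterol, 4 of 5 from lanosterol to zymosterol, 5 of 5 from zymosterol to ergosterol, 5 of 5 electron donors and scaffolds, 1 of 5 regulators, 2 of 4 in esterification and acetylation, and 0 of 2 importers. Total count scaling, which put the median of all genes at 0.11, gave 23 lower and 1 higher. Under every alternative run, 18 of the 25 calls were kept. The other 7 (ERG20, ERG1, ERG6, ERG5, ERG4, NCP1 and ARE2) were lost under at least 1.

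At 48 h 9 members were lower and 1 higher in cnb1Δ (2.19% and 2.7% of all genes), with a median of -0.33. With the replicate block 2 were lower (ERG27 and UPC2) and 0 higher. The same 6 libraries without the block gave 0. At 72 h 17 were lower and 1 higher (4.45% and 4.67% of all genes), with a median of -0.45. The block gave 25 lower and 1 higher, and the same 6 libraries without it 5 lower and 0 higher. The gene called higher at both times was ECM22. The 9 genes lower at 12, 48 and 72 h were ERG13, ERG8, ERG20, ERG26, ERG27, ERG2, ERG28, ERG29 and UPC2. Leaving out WT replicate 1 at 48 h gave 17 lower and 1 higher at that time, and leaving out WT replicate 3 gave 5 and 1. At 72 h the count was 7 lower and 1 higher without WT replicate 3, and 9 and 1 without cnb1Δ replicate 1 or without cnb1Δ replicate 2.

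**Figure D3:**
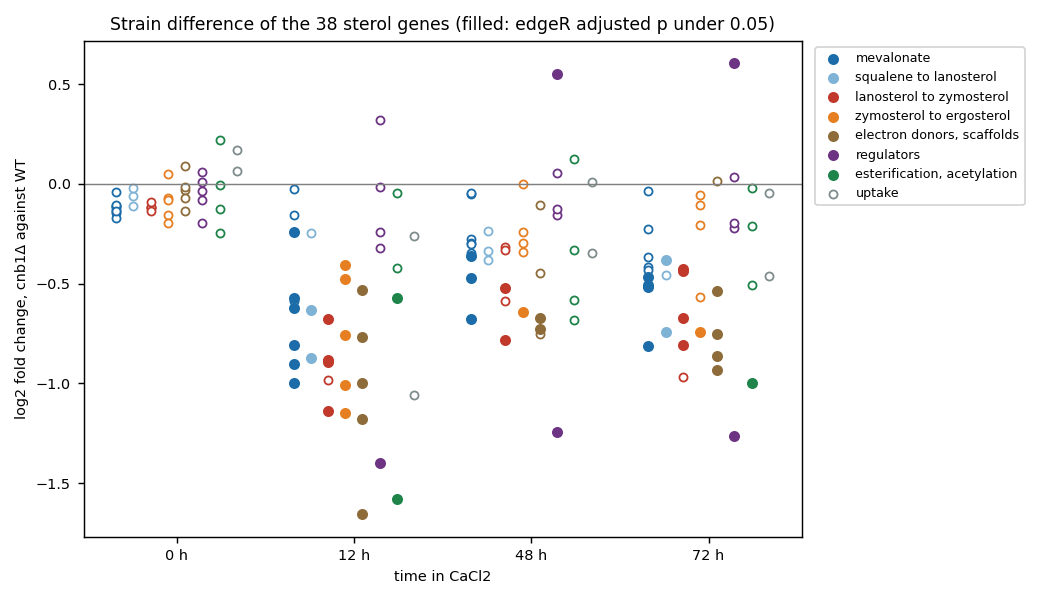
Log2 fold change of cnb1Δ against WT (vertical axis) for each of the 38 genes at 4 times, in a column of points for each role. Filled points have an edgeR adjusted p under 0.05. All points at 0 h are open and lie between -0.24 and 0.22, and at 12 h the lowest are ERG28 and ATF2 at -1.65 and -1.58.

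Whether the 12 h response itself differed between strains was tested as an interaction, the log2 fold change in cnb1Δ minus that in WT. It was negative beyond the threshold for 8 of the 38 genes, against 0.848% of all genes. It was positive for 0 members, against 61 of all 6253 genes. The 8 were ERG13, ERG8, ERG25, ERG26, ERG27, ERG2, ERG28 and ATF2. With the replicate block 30 members were called, these 8 among them, though replicate numbers did not pair the strains at 12 h. At 48 h 0 members and 0.192% of all genes were called. There 10 members had an unadjusted p under 0.05, for which the share of all genes is not given. DESeq2 called 2 members at 48 h, and 16 of all 6253 genes positive and 24 negative. At 72 h 2 were called, ERG26 and ERG27, against 0.624% of all genes called negative. Of the 12 h calls ERG26, ERG27, ERG28 and ATF2 held under every alternative. Leaving out 1 library ended the call of ERG8 in 12 of 12 cases, of ERG2 in 11, of ERG13 in 8 and of ERG25 in 7.

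**Figure D4:**
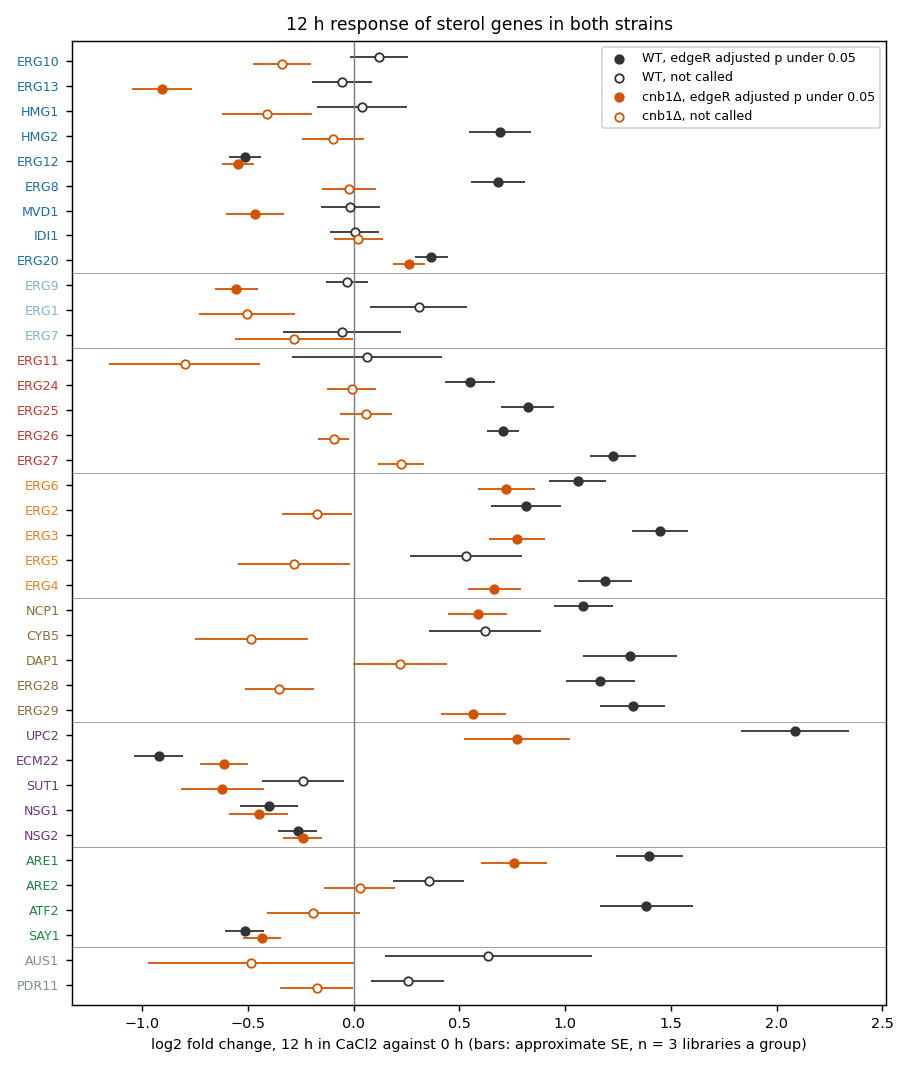
Log2 fold change at 12 h against 0 h (horizontal axis) for each gene in WT (dark) and cnb1Δ (orange), with bars of approximate SE (3 libraries a group). Filled points have an edgeR adjusted p under 0.05. ATF2 and ERG28 lie at 1.38 and 1.17 in WT and at -0.19 and -0.35 in cnb1Δ, while ERG12 lies at -0.52 and -0.55.

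UPC2 (YDR213W, chrIV:889751-892492, plus strand) encodes the sterol-sensing activator. In WT it stood at 35.1, 32.4 and 26.8 CPM at 0 h, at 143, 111 and 147 at 12 h, at 181, 94.4 and 213 at 48 h, and at 187, 164 and 183 at 72 h. In cnb1Δ it stood at 28.7, 33.1 and 27.3 CPM at 0 h, at 50.2, 49.7 and 52.4 at 12 h, at 87.0, 56.6 and 62.8 at 48 h, and at 107, 59.2 and 56.6 at 72 h. Every treated library lay above every library at 0 h of its strain, and at each treated time the cnb1Δ libraries lay below those of WT. In WT UPC2 rose by 2.09 ± 0.26 on the log2 scale at 12 h (approximate SE, edgeR adjusted p = 3.82e-06), the largest rise among the members, and its log2 fold changes at 48 and 72 h were 2.37 ± 0.26 and 2.5 ± 0.26. In cnb1Δ it rose by 0.77 ± 0.25, 1.21 ± 0.25 and 1.32 ± 0.25. The strains differed by -1.40 ± 0.25 at 12 h (edgeR adjusted p = 0.000798), -1.24 ± 0.25 at 48 h and -1.26 ± 0.25 at 72 h. The call at 48 h was kept with the replicate block and ended in a fit of those 6 libraries alone without it. The interaction at 12 h was -1.32 ± 0.35 and missed the threshold (edgeR adjusted p = 0.0591), and with the replicate block it was called. The 12 h call in cnb1Δ was lost without cnb1Δ replicate 1 or without replicate 3 at 0 h.

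ECM22 (YLR228C, chrXII:600019-602463, minus strand), the paralog of UPC2, went the other way. WT libraries held 86.7, 90.9 and 74.8 CPM at 0 h, 44.0, 45.9 and 43.3 after 12 h, 37.2, 45.3 and 43.5 after 48 h, and 38.2, 47.2 and 36.9 after 72 h. The cnb1Δ libraries held 85.1, 87.9 and 81.4 CPM at 0 h, 55.9, 54.7 and 55.6 after 12 h, 65.6, 56.9 and 61.9 after 48 h, and 73.4, 59.5 and 52.8 after 72 h. No treated library reached a library at 0 h of its strain, and the cnb1Δ libraries lay above WT at each treated time. ECM22 fell at every time, with log2 fold changes of -0.92 ± 0.11, -1.0 ± 0.11 and -1.05 ± 0.12 in WT and -0.61 ± 0.11, -0.46 ± 0.11 and -0.45 ± 0.11 in cnb1Δ. Under total count scaling the values in cnb1Δ at 48 and 72 h were -0.22 and -0.15 and were not called. ECM22 was higher in cnb1Δ by 0.55 ± 0.11 at 48 h (edgeR adjusted p = 0.00698, not called with the replicate block at an adjusted p of 0.1) and by 0.60 ± 0.11 at 72 h (edgeR adjusted p = 0.00184), and the 0.32 ± 0.11 at 12 h was not called. The TPM ratio of UPC2 to ECM22 was 0.333 ± 0.0245 in WT and 0.312 ± 0.0206 in cnb1Δ at 0 h. It was 2.70 ± 0.470 and 0.818 ± 0.0211 at 12 h, and 3.96 ± 0.754 and 1.05 ± 0.217 at 72 h.

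Of the other regulators, SUT1 encodes a transcription factor that promotes sterol uptake, and NSG1 and NSG2 encode relatives of the mammalian Insig proteins, of which Nsg1 stabilises Hmg2. SUT1 held 41.0, 32.3 and 38.5 CPM in WT at 0 h and 34.8, 28.2 and 31.7 at 12 h, groups that overlap although the value at 12 h was the lower in each numbered pair. The log2 fold change of SUT1 in WT was -0.24 ± 0.19 and not called, and with the replicate block it was -0.24 and called (edgeR adjusted p = 0.0314). In cnb1Δ SUT1 held 44.7, 32.1 and 39.7 CPM at 0 h and 27.9, 19.9 and 28.0 at 12 h, without overlap. SUT1 fell there at all 3 times, with log2 fold changes of -0.62 ± 0.20 at 12 h (edgeR adjusted p = 0.0162), -0.50 ± 0.19 at 48 h and -0.61 ± 0.19 at 72 h. Total count scaling ended these 3 calls. NSG1 and NSG2 fell in both strains at all 3 times, NSG1 with log2 fold changes from -0.52 to -0.40 and NSG2 from -0.35 to -0.22. Under total count scaling all 6 calls of NSG2 and 5 of 6 of NSG1 were lost, and NSG2 turned in sign at 72 h in both strains. NSG2 also shares 58 bases with another annotated gene on its strand.

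Among the mevalonate genes ERG13, for HMG-CoA synthase, had the largest falls in cnb1Δ. ERG13 (YML126C, chrXIII:19060-20535, minus strand) held 840, 858 and 800 CPM in WT at 0 h, 706, 708 and 991 after 12 h, 368, 510 and 503 after 48 h, and 427, 493 and 487 after 72 h. In cnb1Δ ERG13 held 815, 674 and 772 CPM at 0 h, 409, 358 and 438 after 12 h, 271, 301 and 291 after 48 h, and 228, 275 and 296 after 72 h. The WT libraries at 12 h spanned those at 0 h, whereas all treated cnb1Δ libraries lay below theirs. The log2 fold change of ERG13 at 12 h was -0.06 ± 0.14 in WT, which was not called, and -0.91 ± 0.14 in cnb1Δ (edgeR adjusted p = 7.87e-05). By 72 h ERG13 had fallen in both, with log2 fold changes of -0.83 ± 0.14 in WT and -1.5 ± 0.14 in cnb1Δ. The interaction at 12 h was -0.85 ± 0.20 (edgeR adjusted p = 0.0299).

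HMG1 and HMG2 encode the paired HMG-CoA reductases, the committed step. HMG2 held 186, 219 and 190 CPM in WT at 0 h and 316, 346 and 300 at 12 h, without overlap, and rose by 0.69 ± 0.15 on the log2 scale (edgeR adjusted p = 0.000756). In cnb1Δ HMG2 held 192, 166 and 192 CPM at 0 h and 184, 142 and 188 at 12 h, which overlap, and was lower than WT at 12 h with a log2 fold change of -0.90 ± 0.15 (edgeR adjusted p = 0.000345). At 48 and 72 h HMG2 lay between 189 and 287 CPM in WT and between 150 and 212 CPM in cnb1Δ. HMG1 held 303, 313 and 280 CPM in WT at 0 h, 313, 273 and 333 after 12 h, 136, 254 and 231 after 48 h, and 143, 222 and 215 after 72 h. In cnb1Δ HMG1 held 288, 244 and 282 CPM at 0 h, 213, 179 and 221 after 12 h, 151, 160 and 202 after 48 h, and 100, 156 and 178 after 72 h. The replicate 1 libraries were the lowest of HMG1 at 48 and 72 h in both strains. HMG1 fell by 72 h, with log2 fold changes of -0.63 ± 0.21 in WT and -0.90 ± 0.21 in cnb1Δ. The WT call ended under total count scaling, with limma on unfiltered TPM and without WT replicate 1 at 72 h, with adjusted p between 0.00335 and 0.0912 over all alternatives. The TPM ratio of HMG2 to HMG1 was 0.670 ± 0.0431 in WT at 0 h and 1.07 ± 0.190 at 12 h, and in cnb1Δ 0.682 ± 0.00718 and 0.845 ± 0.036.

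ERG8, for phosphomevalonate kinase, held 163, 173 and 166 CPM in WT at 0 h, 262, 254 and 289 after 12 h, 135, 193 and 175 after 48 h, and 129, 170 and 174 after 72 h. In cnb1Δ ERG8 held 154, 164 and 149 CPM at 0 h, 158, 150 and 152 after 12 h, 108, 132 and 123 after 48 h, and 93.3, 124 and 112 after 72 h. The WT libraries at 12 h stood above all others, and ERG8 rose by 0.68 ± 0.13 there while the value in cnb1Δ was -0.02 ± 0.13 and not called. The interaction was -0.71 ± 0.18 (edgeR adjusted p = 0.0489). ERG12, for mevalonate kinase, fell alike in both strains. It held 121, 122 and 114 CPM in WT at 0 h and 76.9, 85.4 and 87.3 at 12 h, and 114, 111 and 103 and then 70.4, 80.5 and 73.2 in cnb1Δ. The 12 h falls of ERG12 were -0.52 ± 0.08 in WT and -0.55 ± 0.08 in cnb1Δ on the log2 scale, and its interaction was not called. ERG20, for farnesyl pyrophosphate synthase, rose by 0.37 ± 0.08 in WT and by 0.26 ± 0.08 in cnb1Δ at 12 h, the latter a call that ended with cnb1Δ replicates 1 and 3 summed. ERG10, for acetoacetyl-CoA thiolase, and MVD1, for mevalonate pyrophosphate decarboxylase, were lower in cnb1Δ at 12 h with log2 fold changes of -0.57 ± 0.14 and -0.62 ± 0.14. IDI1, for the isomerase of isopentenyl pyrophosphate, was called in none of the 15 comparisons by the fit of all libraries.

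From squalene to lanosterol, ERG9 encodes squalene synthase, ERG1 squalene epoxidase and ERG7 lanosterol synthase. At 12 h ERG9 and ERG1 were lower in cnb1Δ than in WT, with log2 fold changes of -0.63 ± 0.10 and -0.87 ± 0.23. By 72 h all 3 had fallen in cnb1Δ, with log2 fold changes of -0.74 ± 0.10 for ERG9, -0.93 ± 0.23 for ERG1 and -1.10 ± 0.28 for ERG7. ERG7 held 43.1, 79.6 and 82.4 CPM in cnb1Δ at 72 h and 146, 156 and 137 at 0 h. The replicate 1 library was the lowest, and the groups did not overlap.

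ERG11 (YHR007C, chrVIII:120091-121683, minus strand) encodes lanosterol demethylase, the target of azole antifungals and a haem enzyme. It held 1482, 1558 and 1333 CPM in WT at 0 h, 1399, 1737 and 1438 after 12 h, 269, 1171 and 1036 after 48 h, and 565, 811 and 825 after 72 h. In cnb1Δ ERG11 held 1334, 1427 and 1274 CPM at 0 h, 790, 716 and 812 after 12 h, 437, 496 and 715 after 48 h, and 212, 399 and 516 after 72 h. Every treated cnb1Δ library lay below those at 0 h, and the replicate 1 libraries were the lowest at 48 and 72 h in both strains. ERG11 fell in cnb1Δ, with log2 fold changes of -1.29 ± 0.36 at 48 h and -1.84 ± 0.37 at 72 h (edgeR adjusted p = 0.00522 and 0.000293). The change at 12 h in cnb1Δ was -0.80 ± 0.36 and the strain difference at 12 h -0.98 ± 0.36, both short of the threshold (edgeR adjusted p = 0.077 and 0.0707). At 12 h and at 72 h all cnb1Δ libraries lay below all WT libraries. With the replicate block the interaction of ERG11 at 12 h was called. The strain difference at 72 h was not called in the fit of all libraries, and with the replicate block it was -1.04 and called (edgeR adjusted p = 0.000254). ERG11 fell by 0.99 ± 0.36 in WT at 72 h (edgeR adjusted p = 0.0207), a call that ended under total count scaling, with limma on TPM, without WT replicate 2 at 0 h and without WT replicate 1 at 72 h, with adjusted p between 8.53e-05 and 0.086 over all alternatives.

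Of the other enzymes of this stretch, ERG26 and ERG27 kept their strain difference at 12 and 72 h under every alternative. ERG25, ERG26 and ERG27 encode the methyl oxidase, the dehydrogenase and the keto reductase that together remove methyl groups from the sterol ring. ERG27 (YLR100W, chrXII:341810-342853, plus strand) held 162, 184 and 169 CPM in WT at 0 h, 398, 383 and 426 after 12 h, 386, 282 and 343 after 48 h, and 373, 328 and 420 after 72 h. In cnb1Δ ERG27 held 163, 165 and 141 CPM at 0 h, 188, 171 and 189 after 12 h, 208, 186 and 194 after 48 h, and 227, 205 and 208 after 72 h. All treated WT libraries lay above all cnb1Δ libraries. ERG27 rose by 1.23 ± 0.11 in WT at 12 h (edgeR adjusted p = 1.36e-07) and its log2 fold change of 0.22 ± 0.11 in cnb1Δ was not called. The interaction was -1.0 ± 0.15 at 12 h (edgeR adjusted p = 0.00131) and -0.67 ± 0.15 at 72 h (edgeR adjusted p = 0.0383). The call at 72 h ended in 9 of 12 cases with 1 library left out, with adjusted p between 0.00199 and 0.167 over all alternatives.

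ERG26 (YGL001C, chrVII:495453-496502, minus strand) held 158, 155 and 166 CPM in WT at 0 h, 254, 255 and 272 after 12 h, 199, 207 and 204 after 48 h, and 223, 215 and 258 after 72 h. In cnb1Δ ERG26 stayed within 133 and 154 CPM in all 12 libraries. It rose by 0.71 ± 0.07 on the log2 scale in WT at 12 h, and the interaction was -0.80 ± 0.11 at 12 h (edgeR adjusted p = 0.000737) and -0.58 ± 0.11 at 72 h (edgeR adjusted p = 0.00837). ERG25 held 739, 822 and 727 CPM in WT at 0 h and 1273, 1359 and 1418 at 12 h, and 678, 750 and 682 and then 796, 612 and 788 in cnb1Δ. The groups did not overlap in WT and did in cnb1Δ, with log2 fold changes of 0.82 ± 0.12 and 0.06 ± 0.12 and an interaction of -0.77 ± 0.18 (edgeR adjusted p = 0.0257). At 48 and 72 h ERG25 lay between 897 and 1072 CPM in WT and between 648 and 914 CPM in cnb1Δ. ERG24, for the sterol reductase that follows ERG11, rose by 0.55 ± 0.12 in WT at 12 h and stood at -0.01 ± 0.12, not called, in cnb1Δ. The interaction of ERG24 was -0.56 ± 0.16 and missed the threshold (edgeR adjusted p = 0.0887), and with the replicate block it was called.

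From zymosterol to ergosterol the genes split into those that rose in both strains and those that did not. ERG3 (YLR056W, chrXII:253861-254958, plus strand), for the sterol desaturase, held 827, 872 and 847 CPM in WT at 0 h, 2407, 2151 and 2395 after 12 h, 1857, 1800 and 1959 after 48 h, and 1752, 1737 and 1845 after 72 h. In cnb1Δ ERG3 held 815, 776 and 817 CPM at 0 h, 1540, 1068 and 1504 after 12 h, 1703, 1262 and 1790 after 48 h, and 1712, 1510 and 1728 after 72 h. At each treated time all 3 cnb1Δ libraries lay below all 3 of WT. ERG3 rose by 1.45 ± 0.13 in WT and by 0.77 ± 0.13 in cnb1Δ at 12 h, and the strains then differed by -0.76 ± 0.13 (edgeR adjusted p = 0.000596). The strain differences of -0.24 ± 0.13 at 48 h and -0.11 ± 0.13 at 72 h were not called. ERG4, for the last reductase, and ERG6, for the sterol methyltransferase, also rose in both strains, ERG4 by 1.19 ± 0.13 and 0.67 ± 0.13 and ERG6 by 1.06 ± 0.13 and 0.72 ± 0.13 at 12 h.

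ERG2 (YMR202W, chrXIII:667537-668205, plus strand), for the sterol isomerase, held 464, 481 and 496 CPM in WT at 0 h, 826, 795 and 914 after 12 h, 507, 618 and 711 after 48 h, and 517, 622 and 775 after 72 h. In cnb1Δ ERG2 held 437, 408 and 448 CPM at 0 h, 402, 318 and 426 after 12 h, 371, 350 and 455 after 48 h, and 298, 380 and 467 after 72 h. WT moved apart from its 0 h libraries at 12 h, and cnb1Δ overlapped its own at every time. ERG2 rose by 0.81 ± 0.17 in WT at 12 h and its value of -0.17 ± 0.16 in cnb1Δ was not called, with an interaction of -0.99 ± 0.23 (edgeR adjusted p = 0.0308). ERG5, for the second desaturase of the pathway and a haem enzyme like ERG11, was lower in cnb1Δ at 12 h with a log2 fold change of -1.01 ± 0.27 and had fallen in cnb1Δ by 72 h, at -0.86 ± 0.27, a call that ended without cnb1Δ replicate 1 at 72 h.

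All 5 electron donors and scaffolds were lower in cnb1Δ at 12 h, and ERG28 differed most of all members. ERG28 (YER044C, chrV:237570-238016, minus strand) encodes the membrane scaffold that gathers ERG25, ERG26 and ERG27 proteins. It held 78.9, 86.3 and 93.2 CPM in WT at 0 h, 193, 199 and 188 after 12 h, 83.5, 129 and 135 after 48 h, and 116, 119 and 152 after 72 h. In cnb1Δ ERG28 held 77.6, 77.7 and 79.8 CPM at 0 h, 65.5, 52.2 and 66.6 after 12 h, 71.7, 62.3 and 83.6 after 48 h, and 54.5, 67.6 and 80.5 after 72 h. WT libraries at 12 h stood above all others, while those of cnb1Δ at 12 h stood below their 0 h libraries. ERG28 rose by 1.17 ± 0.16 on the log2 scale in WT (edgeR adjusted p = 1.59e-05) and its value of -0.35 ± 0.16 in cnb1Δ was not called. The strain difference at 12 h was -1.65 ± 0.17 (edgeR adjusted p = 2.4e-06), a ratio of 0.318, and the interaction -1.52 ± 0.23 (edgeR adjusted p = 0.00131). At 72 h the strains still differed by -0.93 ± 0.16 (edgeR adjusted p = 0.000995).

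ERG29 encodes a membrane protein needed for the methyl oxidase step, NCP1 the reductase that passes electrons from NADPH to ERG11, CYB5 a haem-containing electron carrier, and DAP1 a haem-binding partner of ERG11. ERG29 held 18.4, 17.6 and 18.2 CPM in WT at 0 h and 46.0, 48.5 and 40.8 at 12 h, and 16.9, 17.1 and 19.7 and then 25.6, 24.8 and 29.1 in cnb1Δ. It rose in both strains, by 1.32 ± 0.15 and 0.57 ± 0.15. NCP1 likewise rose by 1.09 ± 0.14 and 0.59 ± 0.14. DAP1 rose by 1.31 ± 0.22 in WT, where its 12 h libraries held 47.1, 68.6 and 37.9 CPM against 19.6 to 22.6 at 0 h, and its log2 fold change of 0.22 ± 0.22 in cnb1Δ was not called. CYB5 stood at 0.62 ± 0.26 in WT and -0.48 ± 0.27 in cnb1Δ at 12 h, neither called in the fit of all libraries. The replicate block gave 0.61 in WT and a call (edgeR adjusted p = 0.000248). The strains differed in CYB5 by -1.18 ± 0.27 at 12 h (edgeR adjusted p = 0.00511).

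**Figure D5:**
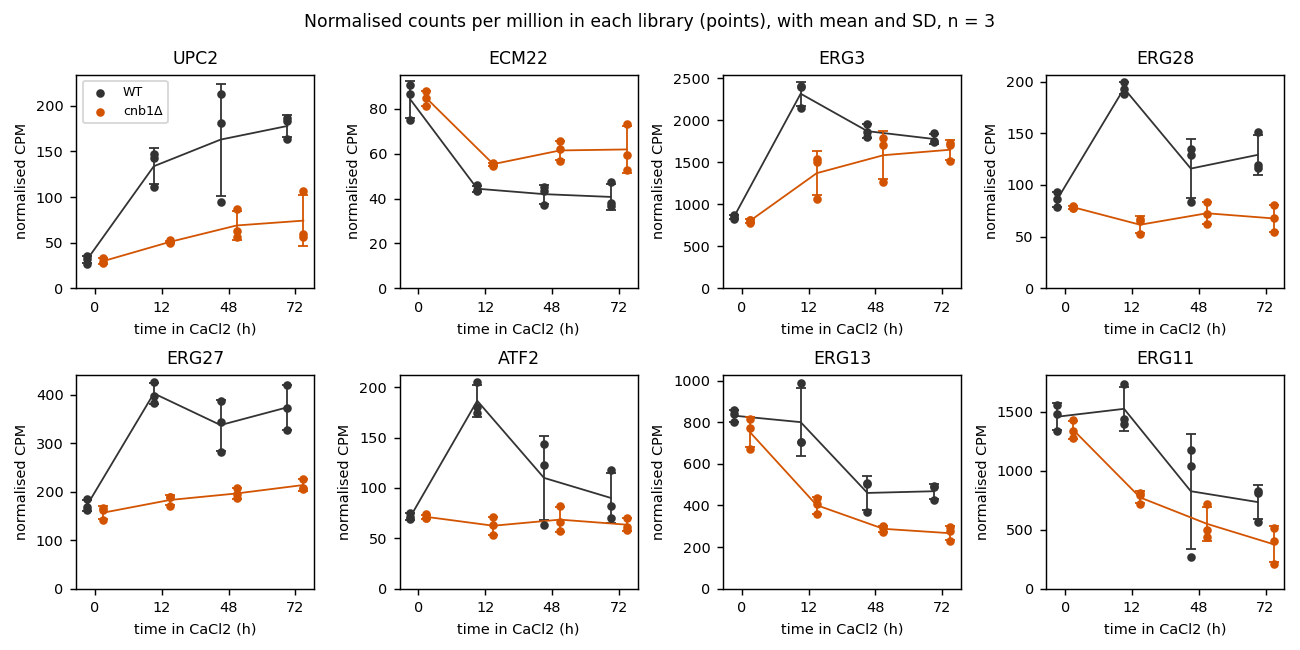
Normalised CPM in each library (points) for 8 members in WT (dark) and cnb1Δ (orange) by time in CaCl2 (h, evenly spaced positions), with group means joined by lines and SD bars (n = 3). UPC2, ERG28, ERG27 and ATF2 stand higher in WT than in cnb1Δ at 12 h, where the cnb1Δ libraries lie between 49.7 and 189 CPM, ECM22 falls in both strains, and ERG11 and ERG13 are lower at 72 h than at 0 h in both.

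Of the genes for esterification and acetylation, ATF2 separated the strains at 12 h nearly as far as ERG28. ATF2 (YGR177C, chrVII:848829-850436, minus strand) encodes an acetyltransferase of alcohols and sterols. It held 70.7, 75.0 and 68.8 CPM in WT at 0 h, 175, 180 and 205 after 12 h, 63.2, 144 and 123 after 48 h, and 69.7, 118 and 82.2 after 72 h. In cnb1Δ ATF2 held 70.0, 73.7 and 69.9 CPM at 0 h, 63.6, 52.8 and 70.8 after 12 h, 65.9, 57.6 and 81.8 after 48 h, and 58.6, 61.3 and 70.4 after 72 h. The strains stood apart at 12 h and overlapped at 48 and 72 h. ATF2 rose by 1.38 ± 0.22 on the log2 scale in WT at 12 h, and its value of -0.19 ± 0.22 in cnb1Δ was not called, with a strain difference of -1.58 ± 0.22 (edgeR adjusted p = 8.58e-05) and an interaction of -1.57 ± 0.31 (edgeR adjusted p = 0.00846). By 72 h the strain difference of ATF2 was -0.51 ± 0.22 and not called, and with the replicate block it was -0.47 and called (edgeR adjusted p = 0.0276). SAY1, for the sterol deacetylase that reverses this step, held 32.8, 32.3 and 33.7 CPM in WT at 0 h and 21.7, 20.7 and 26.7 at 12 h, and 30.7, 28.9 and 30.9 and then 22, 22.2 and 22.8 in cnb1Δ, without overlap in either strain. SAY1 fell, with log2 fold changes of -0.52 ± 0.09 in WT and -0.43 ± 0.09 in cnb1Δ, the latter -0.23 and not called under total count scaling.

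ARE1 and ARE2 encode the acyltransferases that make steryl esters. ARE1 held 72.3, 65.4 and 63.3 CPM in WT at 0 h, 171, 204 and 153 after 12 h and 193, 169 and 187 after 72 h, and in cnb1Δ 81.8, 76.8 and 75.3, then 130, 135 and 131, then 192, 133 and 148. It rose in both strains without overlap, by 1.40 ± 0.16 and 0.76 ± 0.16 at 12 h, and the strain difference was not called at any time. ARE1 shares 298 bases with YCR050C on the opposite strand, and the use of strand in counting is not given. ARE2 held 92.4, 91.2 and 86.2 CPM in WT at 0 h and 92.6, 129 and 151 at 72 h, and in cnb1Δ 78.7, 76.4 and 72.7 and then 45.4, 66.3 and 75.4. ARE2 was lower in cnb1Δ at 72 h with a log2 fold change of -1.0 ± 0.17 (edgeR adjusted p = 0.000764), with all 3 libraries below those of WT. A fit of those 6 libraries alone, with no block, ended this call, and its adjusted p lay between 3.23e-06 and 0.068 over all alternatives. The TPM ratio of ARE1 to ARE2 was 0.783 ± 0.0356 in WT at 0 h and 1.63 ± 0.331 at 12 h, and 1.08 ± 0.0195 and 1.79 ± 0.113 in cnb1Δ.

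The importers AUS1 and PDR11, transporters that bring in sterol when oxygen is short, gave no call between strains in the fit of all libraries. The strains nevertheless stood apart at 12 h. There AUS1 held 127, 170 and 125 CPM in WT and 63.4, 76.8 and 62.6 in cnb1Δ. PDR11 held 31.9, 29.9 and 30.6 CPM in WT and 27.5, 22.8 and 26.8 in cnb1Δ. The replicate block called the 12 h interaction of both genes, though replicate numbers did not pair the strains at 12 h. With the replicate block AUS1 was lower in cnb1Δ at 72 h (log2 fold change of -0.58, edgeR adjusted p = 0.0451). AUS1 held 291, 99.7 and 137 CPM in WT at 48 h and 398, 116 and 214 at 72 h, and in cnb1Δ 230, 90.0 and 94.8 and then 345, 98.8 and 86.5. The replicate 1 library was the highest each time. AUS1 rose by 1.43 ± 0.49 on the log2 scale in WT at 72 h (edgeR adjusted p = 0.0161), a call that ended without WT replicate 1 at 72 h or WT replicate 3 at 0 h, with adjusted p between 0.000772 and 0.143 over all alternatives. PDR11 stayed between 18.9 and 33.8 CPM and was called in none of the 15 comparisons by the fit of all libraries. With the block it was called in WT at 12 h against 0 h (log2 fold change of 0.26, edgeR adjusted p = 0.0346), as was AUS1 (0.63, edgeR adjusted p = 0.000378).

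Between 12 and 72 h several sterol genes fell in WT. Of the 38 genes 14 fell and 0 rose, against 11% of all genes called lower and 764 of all 6253 called higher. The median log2 fold change was -0.26 against 0.03 for all genes. The 14 were ERG10, ERG13, HMG1, ERG12, ERG8, MVD1, ERG9, ERG11, ERG25, ERG3, ERG5, CYB5, ERG28 and ATF2, with log2 fold changes of -1.05 ± 0.22 for ATF2 and -0.77 ± 0.13 for ERG8. The comparison shares its 12 h libraries with that of 12 h against 0 h, in which ATF2 and ERG8 were at 1.38 ± 0.22 and 0.68 ± 0.13 and ERG12 was at -0.52 ± 0.08. Total count scaling, which put the median of all genes at 0.16, left 12 lower. In cnb1Δ 6 fell (ERG13, ERG8, MVD1, ERG20, ERG7 and ERG11) and 0 rose, and the median was 0.01. Of all genes 10.3% were lower there, and 625 of 6253 were higher. Under total count scaling the split in cnb1Δ was 3 up and 5 down. The counts were sensitive to single libraries. In WT 9 fell without WT replicate 1 at 12 h, 6 without replicate 3 at 12 h, 5 without replicate 1 at 72 h and 8 without replicate 2 at 72 h. In cnb1Δ 3 fell without replicate 1 or replicate 3 at 12 h, and 0 fell and 1 rose without replicate 1 at 72 h.

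Genes next to the pathway were covered by 5 lists of 51 genes, written with earlier results of these data known. Their counts in WT at 12 h are to be read against 24.6% of all genes higher and 22.4% lower. In WT at 12 h 7 of 19 genes of sterol transfer rose and 3 fell, 2 of 6 genes of steryl ester hydrolysis and lipid droplets rose and 2 fell, 2 of 9 genes of other isoprenoid branches rose and 5 fell, 2 of 8 genes for the degradation of sterol enzymes rose and 1 fell, and 4 of 9 haem and oxygen regulators and targets rose and 1 fell. Between strains at 12 h the sterol transfer gene HES1, for an oxysterol-binding protein, was lower in cnb1Δ with a log2 fold change of -4.20 ± 0.58, from 134, 207 and 114 CPM in WT to 8.35 or less in cnb1Δ. The steryl ester hydrolase gene YEH1 was lower with a log2 fold change of -0.92 ± 0.14. The fatty acid desaturase gene OLE1 was lower with a log2 fold change of -1.66 ± 0.21, at 7848, 9345 and 7921 CPM in WT and 2957, 1871 and 3096 in cnb1Δ. The haem synthesis gene HEM13 and the haem-responsive activator gene HAP1 were lower with log2 fold changes of -1.19 ± 0.32 and -0.73 ± 0.16. RAM1, for a subunit of the protein farnesyltransferase that uses farnesyl pyrophosphate, was higher by 0.59 ± 0.12. Some other genes of the sterol transfer, lipid droplet and haem lists also stood higher in cnb1Δ at 12 h, without overlap of libraries. LAM4 lay at 26.1 to 33.3 CPM in WT and 42.9 to 49.3 in cnb1Δ. For OSH2 the ranges were 38.2 to 46.9 and 57.9 to 63.4 CPM. LRO1 lay at 37.9 to 48.3 and 55.6 to 63.2 CPM, and MOT3 at 19.4 to 27.5 and 31.9 to 41.2. Between strains at 12 h the lists gave 6 of 19, 3 of 6, 1 of 9, 2 of 8 and 5 of 9 calls in either direction, in the order above, against 15.4% of all genes.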

How the data were processed

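RNA-seq libraries of polyA RNA from 24 yeast cultures (2 strains, 4 times, 3 libraries in each of 8 groups) were analysed from 2 tables. The deposited counts are whole numbers per gene, not normalised by the authors. The second table holds the authors' values labelled TPM per the file headers, a unit that divides by transcript length and scales each library to a fixed total. Build R64 of the genome is given per the submitters' processing notes, and among tools these list DESeq2 and featureCounts without their roles. Not given in the sources used here were the aligner, strand use and the treatment of reads with several matches. Samples were grouped by strain and time as labelled.

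Counts were scaled with TMM and fitted in 1 model of all 24 libraries, which leaves 16 residual degrees of freedom (edgeR 4.0.16 in R 4.3.3, glmQLFit and glmQLFTest, two-sided). The filter on low counts (filterByExpr of edgeR) left 6253 genes, and p-values were adjusted by Benjamini-Hochberg over these within each of 15 comparisons, with 0.05 as the threshold. A value after a fold change is an approximate SE, obtained from the size of the log2 fold change over the root of the F statistic. CPM values are scaled by TMM, and log2 CPM used a prior count of 2. The libraries held 18843220 to 22250806 counts each.

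Alternatives were other size factors, total counts, DESeq2 1.42.0, limma 3.58.1 on log2(TPM + 1) or log2(TPM + 0.1), other filters, fits of the compared groups only, the replicate number as a block, each library left out and the late replicate 1 libraries left out. Summing cnb1Δ replicates 1 and 3 at 0 and 12 h, the most alike pairs, was chosen after seeing the data. The chi-square of counts per degree of freedom was 5.395 and 4.614 for these pairs. It was 31.99 to 55.91 for the other cnb1Δ pairs at 0 and 12 h. Whether the alike libraries came from separate cultures is not known, so these groups may hold fewer than 3 independent cultures. The replicate numbers of the labels paired libraries by correlated deviations (all 3 over 0.1) in WT at 12 h against 0 h (0.228 to 0.396) and between strains at 0 h (0.193 to 0.229), at 48 h (correlations of 0.162 to 0.569) and at 72 h (correlations of 0.314 to 0.689). All 38 members could be named. Values in each library were given for the most changed called members, those called in an interaction, ERG11, HMG1, HMG2, UPC2 and ECM22. The members and lists were chosen with earlier results of these data known.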

Additional observations from a re-analysis of the deposited data

Results flagged for a closer look

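For 8 genes the 12 h response in cnb1Δ differed from that in WT by a test of the difference itself. The interaction (log2 fold change in cnb1Δ minus that in WT) was -1.57 ± 0.31 for ATF2 (cnb1Δ -0.19, WT 1.38, edgeR adjusted p = 0.00846), and its adjusted p lay between 8.91e-06 and 0.0424 over all alternatives. It was -1.52 ± 0.23 for ERG28 (-0.35 and 1.17, edgeR adjusted p = 0.00131), -1.0 ± 0.15 for ERG27 (0.22 and 1.23, edgeR adjusted p = 0.00131) and -0.80 ± 0.11 for ERG26 (-0.09 and 0.71, edgeR adjusted p = 0.000737). It was -0.99 ± 0.23 for ERG2 (-0.17 and 0.81, edgeR adjusted p = 0.0308), with a range of 7.89e-05 to 0.106 over the alternatives. It was -0.85 ± 0.20 for ERG13 (-0.91 and -0.06, edgeR adjusted p = 0.0299), with a range of 0.00265 to 0.127. It was -0.77 ± 0.18 for ERG25 (0.06 and 0.82, edgeR adjusted p = 0.0257), with a range of 0.00226 to 0.0744. It was -0.71 ± 0.18 for ERG8 (-0.02 and 0.68, edgeR adjusted p = 0.0489), with a range of 0.000512 to 0.165.

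At 72 h the responses differed for ERG26, by -0.58 ± 0.11 (-0.04 and 0.54, edgeR adjusted p = 0.00837), and for ERG27, by -0.67 ± 0.15 (0.45 and 1.12, edgeR adjusted p = 0.0383). The adjusted p of ERG26 lay between 3.9e-05 and 0.04 over the alternatives.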

How the results depend on the processing

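The 225 member calls were recomputed under each alternative, which gave 3402 values with the same direction and call, 512 with the same direction but no call, and 5 of the other sign. The 5 were NSG2, at 0.0062 in WT at 72 h under total count scaling and, in cnb1Δ at 72 h, 0.0574 under total count scaling, 0.0451 with limma on log2(TPM + 1), 0.0456 on log2(TPM + 0.1) and 0.0451 without a filter. The cause was not tested.

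Shares of all genes are not given for the block, the compared groups only or libraries left out. Counts of members under these settings, here and above, therefore have no background to be read against. With the replicate block, the members called were 16 in WT at 48 h, 29 in cnb1Δ at 12 h, 2 between strains at 48 h, 30 for the interaction at 12 h and 5 at 72 h. In WT at 12 h the block called 30, of which 23 were the main calls, and between strains at 72 h 26, of which 18 were. Outside the 4 paired comparisons the libraries share only a number (0.0149 to 0.366 between strains at 12 h), and in cnb1Δ at 72 h against 0 h, but in no other of these, all 6 libraries correlated best with their own number.

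With the compared groups only, 26 were called in cnb1Δ at 12 h, 0 between strains at 48 h, 5 at 72 h and 22 for the interaction at 12 h. DESeq2 called 15 for the interaction at 12 h, 2 at 48 h and 4 at 72 h. Of all 6253 genes it called 126 positive and 105 negative at 12 h, where the main fit called 61 and 53. For the interaction at 48 h DESeq2 called 16 and 24 of all genes, and at 72 h 63 and 77. At 48 h total count scaling and each of the 3 limma fits called 1. Without the late replicate 1 libraries 18 were called between strains at 48 h and 6 for the interaction at 72 h. With cnb1Δ replicates 1 and 3 summed, chosen after seeing the data, 4 were called for the interaction at 12 h, 1 at 72 h and 2 in cnb1Δ between 12 and 72 h. In cnb1Δ at 12 h against 0 h that setting called 12, where the main fit called 17.

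Leaving out 1 library in turn gave 21 to 23, 21 to 27 and 24 to 26 calls in WT at 12, 48 and 72 h, and 14 to 16, 17 to 24 and 23 to 27 in cnb1Δ. Between strains it gave 0 at 0 h, 18 to 23 at 12 h, 6 to 18 at 48 h and 8 to 16 at 72 h. For the interaction it gave 4 to 8, 0 to 2 and 1 to 3. The 4 came without WT replicate 1 or 3 or cnb1Δ replicate 3 at 0 h, or without cnb1Δ replicate 2 at 12 h, and the 2 without WT replicate 2 at 48 h. Omitting WT replicate 2 or cnb1Δ replicate 1 or 2 at 0 h, WT replicate 3 at 12 h, or cnb1Δ replicate 1 at 12 h left 5. From 12 to 72 h it gave 5 to 13 in WT and 1 to 8 in cnb1Δ.

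With 3 libraries a group and no untreated late cultures, calcium and time cannot be told apart. In WT at 72 h against 0 h the approximate SE was 0.49 for AUS1, 0.36 for the abundant ERG11 and 0.09 for SAY1, which has few counts.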
